A study of Mus musculus with 55 samples.

Results

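Methylation of liver DNA was compared gene by gene between mouse embryos shortly before birth and young adults, to describe which genes gained and which lost methylation as the liver matured. Reduced representation bisulfite sequencing (RRBS) had been applied to livers of C57BL/6 mice (C57BL/6J in the study's methods), 5 libraries of late embryos (E18.5, days after mating) and 10 libraries at 9 wk of age. A gene was measured if at least 5 CpGs lay between 5 kb upstream of its start site and its end, counting each cytosine of a CpG on its own and only those with a value in at least 80% of the 15 libraries. Of 37310 genes in the mouse annotation GENCODE vM1 on build mm9, 10402 met this rule, 8867 of them protein-coding, and these are the genes described. They held 149388 of the 249791 CpGs that passed the rule on missing values, and the median gene had 11.

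Each library came from the liver of 1 animal without transgene or treatment in the labels. The study states that the 9 wk animals were male and that mice of its first RRBS experiment ate a chow with coconut oil, and the sex of the embryos is not in the labels. A second set of 9 livers, at postnatal day 1 (P1), is given beside the main comparison. The titles of those libraries also carry a tag of 6 months, and their age label, P1, was used. The series names 7 of the 9 wk libraries as taken from another study, and the labels do not show which. A difference of source therefore cannot be told apart from age in this comparison. Nor can a difference of sex, as that of the embryos is unknown. At 9 wk 7 libraries were deposited first and 3 later (replicates 8 to 10). Whole liver holds many cell types, so a lower share of a cell type and a change of methylation within it cannot be told apart in these values. RRBS of DNA has no expression markers against which the tissue label could be checked.

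DNA methylation in mammals is found mostly at cytosines followed by guanine (CpG). CpG-dense start sites are usually unmethylated, whereas gene bodies and the sequence between genes are mostly methylated, and enhancers in use tend to be less methylated in the cell types that use them. Before birth the liver is a blood-forming organ in which hepatocytes lie among erythroid and other blood precursors. Those precursors leave around birth, and the hepatocytes then take on adult metabolism, such as fatty acid oxidation, bile acid synthesis and drug oxidation. RRBS cuts DNA at CCGG, so it favours CpG-rich sequence and sees only part of most genes.

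The common course was a gain. At an adjusted p of up to 0.1 (limma, Benjamini-Hochberg over the 10402 genes) and a difference of more than 5 percentage points, 7530 genes gained methylation (72.4%) and 702 lost it (6.75%). Changes of more than 20 points were seen in 609 genes upward (5.85%) and in 159 downward (1.53%). In 6924 genes (66.6%) the 5 E18.5 and the 10 9 wk values did not overlap. The median gene gained 8.61 points, with quartiles of 4.39 and 12.5. Averaged over all genes, the embryos had 62.1% ± 0.422 (SD, n = 5) methylation and the adults 70.1% ± 0.171 (SD, n = 10). The difference was 7.97 points, with p = 0.000333 in a two-sided exact permutation test, which is the lowest p that 5 against 10 libraries allow. The libraries ranged from 61.7 to 62.8% and from 69.9 to 70.4%, so the ages did not overlap. Missing values had been filled with the CpG's mean at the same age beforehand, mostly in adult libraries. This narrows the adult spread, and the filled values already carry the age labels that the test permutes.

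Much of this gain was shared by CpGs that were highly methylated over both ages together. They were chosen by a mean above 80% over the 15 libraries compared, most of them adult, and not by their level at E18.5. A CpG below 80% at E18.5 could therefore pass if it gained, so the choice favours gains. How much of the rise at these CpGs comes from the choice was not tested. Over 36563 such CpGs, the mean per library was 81.1 to 82.6% at E18.5 and 92.2 to 93.1% at 9 wk. When each library was divided by that mean, the median gene change was -0.25 points, 2111 genes gained (20.3%) and 2431 lost (23.4%). The share of gains among called genes was then 46.5%, against 91.5% for the values as deposited. Of the 7530 genes that gained as deposited, 2111 still did after the division and 263 were called lower. The division lowers adult values against those of embryos, so that losses and the largest gains had to keep their direction. Changes below are on the deposited scale, to be read against the median of 8.61 points, and the turns of named genes with the division are given.

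**Figure D1:**
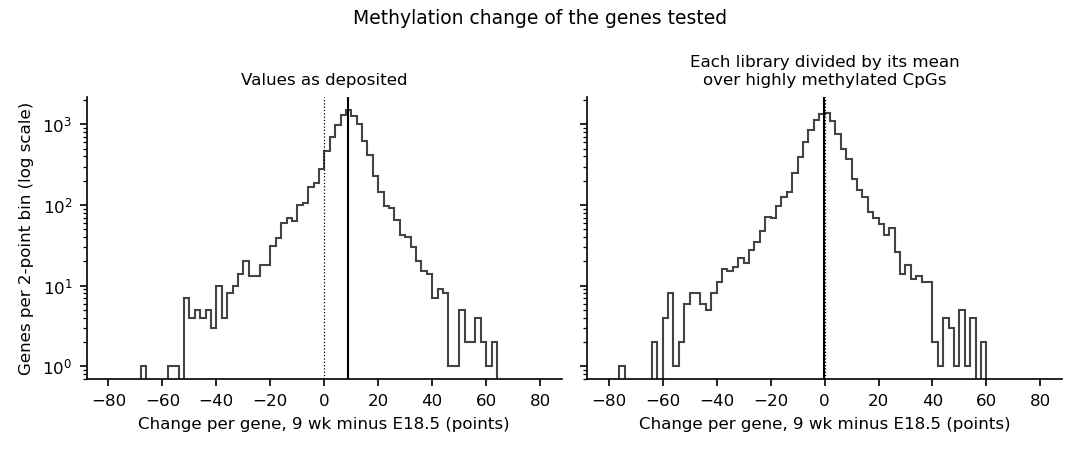
Number of genes (log axis) by methylation change in percentage points, 9 wk minus E18.5, for the values as deposited (left) and with each library divided by its mean over highly methylated CpGs (right). The solid line marks the median gene, at 8.61 and -0.25 points, and the dotted line no change; both tails reach beyond 40 points on either scale.

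Genes with large changes were found at different starting levels. Genes that gained more than 20 points had a median of 40.5% at E18.5 and 68.8% at 9 wk. Genes that lost more than 20 points went from 64.9 to 30.4%, below their level before birth and below the adult median of all genes, 76.3%. In the 680 genes that started at 0 to 20%, 124 gained more than 20 points and 0 lost as much, which their low start did not allow. From 20 to 40% the numbers were 176 gains and 6 losses among 905 genes, and from 40 to 60% they were 214 and 48 among 2072. Among the 4857 genes that started at 60 to 80%, gains of this size (95) and losses (78) were closer in number, and the 1888 genes above 80% held 27 of the losses. These genes also differed from all genes in where their CpGs lay and in the length of their windows. Of CpGs counted once in each gene, 23.01% in the genes with large gains and 24.9% in those with large losses lay upstream of the start site, against 14.01% in all genes. Introns held 40.03 and 36.7%, against 53.9%. The median window was 19.3 and 19.2 kb long, against 30.4 kb for all genes, and it held 10 and 8 CpGs. Genes not called lay between, with 17.0% upstream, 45.8% in introns and a median window of 25.7 kb. The upstream part is 5 kb in every window and takes up more of a short one. Whether the shares differ beyond that was not tested.

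P1 livers stood close to E18.5 at the genes that moved most. The median of the 609 genes with large gains was 45.5% at P1, and the median gene had gone 15.5% of the way to its adult level. For the 159 genes with large losses the P1 median was 64.0%, 2.74% of the way. Between E18.5 and P1 2245 of all genes gained (21.6%) and 30 lost (0.288%), and between P1 and 9 wk 5304 gained (51%) and 827 lost (7.95%). After the division these numbers were 53 and 207, and 1907 and 1592. Of the large losses, 21 were already called lower at P1 and 9 were called higher, and of the large gains 231 were called higher. The comparisons share libraries with the one that chose these genes, so the counts describe when most of the difference was present and are not separate evidence of it. Between P1 and 9 wk all 609 and all 159 were called, in their own direction.

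The stretches of sequence in which neighbouring CpGs moved together are shown for 10 of the genes with the largest changes, since the gene averages rest on short stretches such as these. All are the plus strand of mm9, with the CpGs that changed by more than 30 points in the stretch's direction in capitals and up to 10 bases on either side. CpGs in lower case between the capitals were not among the CpGs kept. They lacked values in too many libraries or had been removed by the authors beforehand, for instance as under 10% throughout. Which of these applies was not examined, so whether they changed is unknown. The first 5 gained methylation, and stand at chr7:31837336-31837445 (an intron of Fxyd1), chr9:107803463-107803667 (coding sequence and intron of Mon1a), chr14:21514706-21514893 (coding sequence of Fut11), chr11:3191399-3191644 (coding sequence of Patz1) and chr13:51938144-51938441 (upstream of Gadd45g).
Fxyd1: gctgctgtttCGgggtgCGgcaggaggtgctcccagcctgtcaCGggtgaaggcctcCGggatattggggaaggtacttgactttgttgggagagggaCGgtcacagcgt
Mon1a: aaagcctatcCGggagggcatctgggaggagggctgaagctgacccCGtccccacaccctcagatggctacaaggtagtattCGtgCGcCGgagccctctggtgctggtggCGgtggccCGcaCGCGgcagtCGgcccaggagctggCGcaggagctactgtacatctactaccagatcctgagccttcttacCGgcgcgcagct
Fut11: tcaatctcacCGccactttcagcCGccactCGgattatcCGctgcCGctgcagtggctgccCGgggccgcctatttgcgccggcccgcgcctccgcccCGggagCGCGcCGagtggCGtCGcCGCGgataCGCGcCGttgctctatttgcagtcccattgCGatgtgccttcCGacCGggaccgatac
Patz1: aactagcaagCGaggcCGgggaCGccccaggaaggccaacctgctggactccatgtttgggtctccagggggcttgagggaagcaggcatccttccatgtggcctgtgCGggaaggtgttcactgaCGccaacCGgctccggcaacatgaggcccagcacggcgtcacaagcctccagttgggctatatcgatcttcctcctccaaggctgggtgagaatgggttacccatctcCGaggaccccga
Gadd45g: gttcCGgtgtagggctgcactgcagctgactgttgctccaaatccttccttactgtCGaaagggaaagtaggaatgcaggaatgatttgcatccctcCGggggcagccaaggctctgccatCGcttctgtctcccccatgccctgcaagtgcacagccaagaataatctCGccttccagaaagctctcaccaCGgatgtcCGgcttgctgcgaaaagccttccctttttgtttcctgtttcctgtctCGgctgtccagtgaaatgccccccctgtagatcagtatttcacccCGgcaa
The next 5 lost methylation, at chr11:49074544-49074818 (coding sequence of Mgat1), chr3:82816760-82816919 (coding sequence of Fgg), chr9:22031271-22031567 (intron of Zfp809), chr17:30739295-30739455 (intron of Glo1) and chr4:107724492-107724632 (intron of Scp2).
Mgat1: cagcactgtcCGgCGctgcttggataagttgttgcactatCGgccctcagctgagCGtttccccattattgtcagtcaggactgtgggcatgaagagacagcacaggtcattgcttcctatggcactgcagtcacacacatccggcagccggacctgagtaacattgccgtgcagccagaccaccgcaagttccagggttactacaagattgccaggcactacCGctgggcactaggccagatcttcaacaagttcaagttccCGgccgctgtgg
Fgg: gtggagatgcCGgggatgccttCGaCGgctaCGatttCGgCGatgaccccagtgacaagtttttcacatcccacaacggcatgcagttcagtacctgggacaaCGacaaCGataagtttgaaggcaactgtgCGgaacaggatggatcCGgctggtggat
Zfp809: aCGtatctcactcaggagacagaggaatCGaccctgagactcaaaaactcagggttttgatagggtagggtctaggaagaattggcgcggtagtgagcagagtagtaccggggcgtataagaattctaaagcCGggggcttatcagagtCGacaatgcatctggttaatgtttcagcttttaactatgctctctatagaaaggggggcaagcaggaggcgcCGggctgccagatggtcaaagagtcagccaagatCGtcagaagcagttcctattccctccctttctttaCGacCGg
Glo1: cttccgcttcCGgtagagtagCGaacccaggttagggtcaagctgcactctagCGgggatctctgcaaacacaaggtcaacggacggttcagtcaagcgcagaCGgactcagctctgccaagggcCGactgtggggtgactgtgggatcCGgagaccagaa
Scp2: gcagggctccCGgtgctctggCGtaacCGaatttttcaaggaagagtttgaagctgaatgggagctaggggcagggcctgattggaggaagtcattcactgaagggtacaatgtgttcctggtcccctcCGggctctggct
The Fut11 stretch was the densest of the 10, with 27 CpG sites in 188 bases and a GC content of 68.6%. Of these sites 20 changed, and the others had no value among the CpGs kept. The Scp2 stretch held 4 sites in 141 bases, all of which changed.

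Among the largest gains were genes of ion transport, glycosylation, membrane traffic, antigen processing and hormone response. The 15 largest, taken over autosomal protein-coding genes whose 2 ages did not overlap, ranged from 45.7 to 63.1 points. At the top stood Fxyd1 and Fxyd7, small membrane proteins that modulate the sodium pump. They share the same 6 CpGs, 3241 to 3328 bp after the start of Fxyd1 and -953 to -866 bp from that of Fxyd7. The E18.5 livers had 13.2, 12.6, 17.997, 14.9 and 15.2%, and the 9 wk livers 68.8% at the lowest, 78.5% at the median and 92.0% at the highest. Every adult liver was far above every embryo, at 77.9% ± 6.35 (SD, n = 10) against 14.8% ± 2.11 (SD, n = 5), a gain of 63.1 points (SE 2.64, adjusted p = 1.42e-12). All 6 CpGs were measured in 6 of the adult libraries, and 1 library had none measured and carries the filled mean of its age.

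Mon1a, a subunit of the complex that activates Rab7 on late endosomes, gained over 14 CpGs near its end. The embryos had 25.1, 23.5, 26.9, 27.9 and 23.96%, and adult livers ranged from 77.6 to 87.4% with a median of 83.8%. The highest embryo stood well below the lowest adult, and the gain was 58.1 points (SE 1.34, adjusted p = 1.13e-15). The window overlaps an annotated U6 small RNA gene.

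Fut11, a fucosyltransferase, was nearly unmethylated before birth and strongly methylated in adults, in coding sequence close to its start. Its 53 CpGs lie 25 to 693 bp after the start site, 52 of them coding, and 51 gained more than 30 points. The embryos had 1.04, 2.09, 2.598, 2.34 and 1.37%, P1 livers averaged 1.80%, and the adults had 53.5% at the lowest, 59.6% at the median and 67.6% at the highest. No embryo came near any adult, and the gain was 57.9 points (SE 1.88, adjusted p = 7.68e-14).

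Psmb8, a subunit of the immunoproteasome, gained over 7 CpGs at -791 to -701 bp from its start, which also lie in the window of Tap1, a subunit of the transporter that carries peptides for antigen presentation. The embryos had 10.5, 14.4, 18.2, 17.1 and 16.1%, and the adults 64.7, 68.7 and 75.8% at the lowest, median and highest. The groups did not overlap, and the gain was 53.9 points (SE 1.63, adjusted p = 3.4e-14).

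Gadd45g, a stress-inducible gene that slows growth, gained at 10 CpGs between -3899 and -3610 bp. The embryos were closely spaced, at 13.0, 13.3, 12.3, 12.8 and 13.9%, and the adults had 52.9, 61.2 and 66.3% at the lowest, median and highest. Again the groups stood apart, by 48.4 points on average (SE 1.70, adjusted p = 2.36e-13). Patz1, a zinc finger transcription factor, had 15.8, 15.9, 16.7, 15.6 and 17.0% in the embryos and 61.2, 66.9 and 72.3% in the adults at the lowest, median and highest, over 20 CpGs. That gain was 50.9 points (SE 1.55, adjusted p = 3.4e-14), with no overlap.

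A liver receptor and a liver enzyme were in the same group. Adra1b, the alpha-1B adrenergic receptor, through which catecholamines stimulate glucose release by hepatocytes, gained 45.8 points (SE 1.24) over 41 CpGs, from 14.4% ± 0.357 (SD, n = 5) to 60.2% ± 2.71 (SD, n = 10). Hsd17b13, an enzyme of hepatocyte lipid droplets, gained 51.6 points (SE 2.47) at 5 intronic CpGs, with 2 of the adult libraries wholly filled. Il17ra, the receptor subunit for interleukin 17, rose from 33.7 to 79.4%. The 5 CpGs of 4732471J01Rik, which gained 55.2 points, lie in Lipe, the hormone-sensitive lipase. Nudt4, a hydrolase of inositol pyrophosphates, gained 55.5 points upstream of its start. Prosapip1 (58.5 points), Fam166b (56.7), Prhoxnb (53.1) and 5430407P10Rik (51.0) complete the 15.

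**Figure D2:**
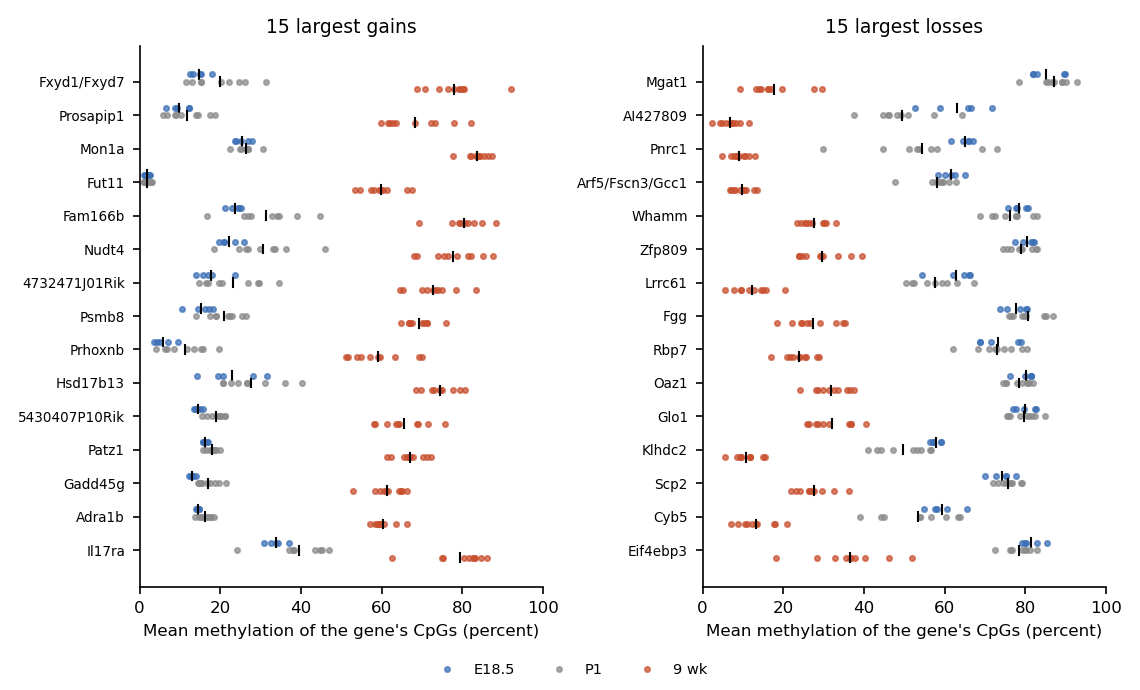
Mean methylation of the gene's CpGs in percent, for the 15 largest gains (left) and losses (right) among autosomal protein-coding genes. Each point is a library at E18.5 (blue, 5), P1 (grey, 9) or 9 wk (red, 10) and each black tick the mean of an age; at the gains the 9 wk points stand to the right of all E18.5 points and at the losses to the left, with P1 near E18.5.

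The largest losses included genes of protein glycosylation, blood clotting, lipid and retinoid handling and polyamine control. They ranged from 45.1 to 67.5 points. Mgat1, the enzyme that starts the branching of N-linked sugar chains, fell most, at 6 coding CpGs. The embryos had 81.9, 89.9, 89.6, 82.0 and 82.8%, P1 livers averaged 87.1%, and the adults had 9.22% at the lowest, 16.2% at the median and 29.7% at the highest. No adult was above 29.7% and no embryo below 81.9%, and the mean fell by 67.5 points (SE 2.82, adjusted p = 1.42e-12).

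Fgg, the gamma chain of fibrinogen, a clotting protein that hepatocytes secrete, fell at 10 coding CpGs 4989 to 5128 bp from its start. Values before birth were 73.8, 80.2, 78.6, 80.3 and 75.5%, with 80.6% on average at P1, and adult values had a lowest of 18.47%, a median of 26.2% and a highest of 35.3%. The ages were far apart, with a decrease of 50.2 points (adjusted p = 6.55e-12), given here as a fall from 77.7% ± 2.91 (SD, n = 5) to 27.4% ± 5.57 (SD, n = 10).

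Zfp809, a zinc finger protein that silences retroviral elements, fell at 10 intronic CpGs 984 to 1292 bp from its start. The embryos had 81.4, 77.5, 82.1, 79.5 and 81.8%, and the adults 23.8, 29.3 and 39.6% at the lowest, median and highest. The groups did not overlap, and the mean fell by 50.8 points (SE 2.32, adjusted p = 3.73e-12).

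Several other losses lay in genes of metabolism. Scp2, a carrier of sterols and a peroxisomal thiolase, went from 74.2 to 27.5%, and Glo1, which detoxifies methylglyoxal, from 79.9 to 32.1%. Rbp7, a retinol-binding protein, fell from 73.3 to 23.8% at 5 intronic CpGs, with 1 adult library wholly filled. Cyb5, the electron carrier cytochrome b5, went from 59.3 to 13.3%, and Oaz1, the antizyme that restrains polyamine synthesis, from 80.1 to 31.8%. Pnrc1, a coactivator of nuclear receptors, ended at 9.10% ± 2.36 (SD, n = 10) after 65.0% ± 2.17 (SD, n = 5).

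The remainder were mostly genes of traffic, the cytoskeleton or protein turnover. Arf5, a small GTPase of the Golgi, and Gcc1, a Golgi coiled-coil protein, share 13 CpGs that fell from 61.5 to 9.69%, and 5 of these also belong to Fscn3. Whamm, which promotes actin assembly on membranes, went from 78.5 to 27.6%. Klhdc2, a substrate receptor of a ubiquitin ligase, went from 57.8 to 10.8%, and Eif4ebp3, an inhibitor of translation initiation, from 81.5 to 36.5%. Lrrc61 and AI427809, which complete the 15, fell to 12.2 and 6.85%, the latter from 63.2%. At 4732471J01Rik, AI427809 and Eif4ebp3 1 adult library each had no CpG measured and carries the filled mean.

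Genes of adult hepatocyte function were the only one of the 24 lists examined with more losses than gains on the deposited scale. The lists were written with earlier results of these data known, so their order is descriptive and not a test. Of 69 members, 31 were measured, 14 lost, 6 gained and 11 were not called, so that 45.2% lost against 6.75% of all genes. Their median change was -2.92 points, beside 8.61 for all genes. Divided by the highly methylated CpGs it was -13.7, with 24 losses and 1 gain. With the 7 adult libraries deposited first it was -3.38, with 14 losses and 6 gains. Clotting factors were among the losses. Fga, the alpha chain of fibrinogen, fell from 58.9 to 29.0%, F7 from 46.4 to 31.4% and F10 from 38.9 to 26.6%. F12, also a clotting factor, gained instead, from 13.9% ± 3.68 (SD, n = 5) to 49.9% ± 7.25 (SD, n = 10).

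Enzymes of amino acid, lipid and bile acid metabolism made up most of the other losses. Gnmt, which regulates the methyl donor S-adenosylmethionine, had 62.9, 55.4, 60.3, 59.4 and 64.3% before birth and 17.5, 29.7 and 35.6% in the adults at the lowest, median and highest. The groups were separate, and the mean fell by 31.7 points (SE 2.66, adjusted p = 5.6e-09). Hpd, of tyrosine breakdown, went from 71.5 to 59.9%, Ass1, of the urea cycle, from 76.9 to 65.8%, and Pklr, the liver pyruvate kinase, from 75.2 to 63.6%. Scarb1, the receptor for high-density lipoprotein, went from 81.3 to 70.2%. Cyp7a1, the rate-limiting enzyme of bile acid synthesis, fell by 10.2 points, from 86.6%. Igfals, Sds and Asl fell by 8.53, 7.99 and 5.45 points, and at Sds and Asl the ages overlapped. Gains were found in Cyp1a2, a drug-oxidising enzyme (11.4 points), Acacb (10.6), Pemt (7.25) and Cpt1a (5.77). After the division Cpt1a, which admits fatty acids to mitochondria, was called lower (-5.68 points), and Cyp1a2 (1.86), Acacb (2.24) and Pemt (-0.29) were not called.

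Transcription factors of the liver were split. Of 37 members 30 were measured, and 16 gained and 9 lost, the latter 30% of them against 6.75% of all genes. Their median was 5.67 points as deposited and -1.71 after the division, with 11 gains and 12 losses. The losses held several nuclear receptors and C/EBP factors that drive adult metabolism. Ppara, the receptor that switches on fatty acid oxidation, fell most. At its 8 intronic CpGs the embryos had 52.7, 57.1, 58.7, 65.6 and 62.4%, P1 livers averaged 64.0%, and the adults had 14.9, 17.9 and 27.9% at the lowest, median and highest. The ages did not overlap, and the mean fell by 40.02 points (SE 2.06, adjusted p = 1.47e-11).

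Klf15, a regulator of amino acid breakdown and glucose production, went from 43.7 to 22.97%, Rxra, the common partner of many nuclear receptors, from 41.5 to 21.2%, and Foxa3, a forkhead factor, from 53.8 to 34.95%. Srebf1, which drives fatty acid synthesis, fell by 18.4 points, Cebpb by 15.7, Nr1i2 by 13.2, Hnf4a by 12.6 and Cebpa by 9.39. The ages overlapped at Nr1i2 and Cebpa. The gains included the other forkhead factors. Foxa1, a pioneer factor of early liver, had 6.69, 5.82, 5.77, 7.01 and 7.24% in the embryos and 26.6, 31.8 and 37.8% in the adults at the lowest, median and highest, a gain of 25.1 points without overlap (SE 1.47, adjusted p = 6.71e-11). Foxa2 went from 12.9 to 25.6%. Nr2f2, an orphan receptor, rose from 8.51 to 32.4% and its relative Nr2f6 from 31.4 to 51.4%. Mlxipl, the glucose-responsive factor, gained 14.9 points and Ppargc1a, a coactivator of gluconeogenesis, 16.6.

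Regulators of blood formation gained about as much as other genes, with a few large gains among them. Of 26 members 19 were measured, with 11 gains (57.9%, against 72.4% of all genes), 2 losses and a median of 8.53 points. Gfi1b, a repressor needed for red cells and platelets, gained most, over 6 intronic CpGs 1120 to 1213 bp from its start. Embryos had 17.8, 24.2, 26.6, 27.4 and 26.9% and adults 62.3, 68.0 and 79.7% at the lowest, median and highest. The groups did not overlap, and the gain was 45.6 points (SE 2.54, adjusted p = 3.89e-11). Lmo2, a partner of the stem cell factor Tal1, rose from 17.1 to 42.6%, Meis1 from 26.0 to 48.3% and Kit, the stem cell factor receptor, from 63.0 to 80.03%. Erg and Irf8 gained 17.7 and 16.8 points.

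The 2 losses were Lyl1, a relative of Tal1 (45.5 to 26.6%), and Runx3 (56.0 to 40.98%). Lyl1 was mixed. It has 8 CpGs upstream and 7 coding ones, and the gene body alone gained 38.3 points. Gata2 (0.344 points), Tal1 (1.31), Bcl11a (2.61), Runx1 (2.87), Ikzf1 (3.22) and Cbfa2t3 (4.91) were not called. After the division all 6 lay below 0, and Tal1 (-6.25), Bcl11a (-8.31), Runx1 (-5.72) and Ikzf1 (-6.47) were called lower.

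Leukocyte signalling genes had the highest median of the 24 lists, 14.5 points. Of 40 members 25 were measured, 20 gained (80%, against 72.4% of all genes) and 3 lost, and 12 and 5 after the division, with a median of 4.49. Dok2, an adaptor that dampens signalling in blood cells, had 37.4, 47.9, 40.3, 44.7 and 34.9% in the embryos and 70.6, 73.5 and 81.4% in the adults at the lowest, median and highest. The gain was 33.3 points without overlap (SE 2.06, adjusted p = 1.32e-10). Itgal, the alpha chain of the leukocyte integrin LFA-1, gained 32.1 points, Ptpn6, a phosphatase of blood cells, 24.7, Vav1 23.1 and Rac2 22.4. The losses were Rasal3, Cd37 and Sipa1, by 31.5, 10.5 and 8.06 points, and the ages overlapped at Cd37. With CpGs measured in all 15 libraries Cd37 was at -4.84 points and not called.

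Immune signal proteins and integrins also had medians above that of all genes. Among all genes 72.4% gained and 6.75% lost as deposited, and 20.3% and 23.4% did after the division. Of 138 chemokines, interleukins and their receptors 41 were measured, with 32 gains (78.0%), 6 losses (14.6%) and a median of 11.7 points. After the division these 41 held 16 gains and 8 losses. Il12a, a subunit of interleukin 12, gained 41.1 points and stood at 59.6% in adults, whereas Il22ra1, the receptor through which interleukin 22 acts on hepatocytes, fell by 18.2 points. Of 23 measured integrins 22 gained (95.7%) and 0 lost, with a median of 12.4 points and 8 gains after the division. Itgax, a marker of dendritic cells, gained 16.0 points and Itga2b, a platelet integrin, 14.7. Among 32 protein tyrosine phosphatases 26 gained (81.3%) and 0 lost, and 5 gained and 4 lost after the division.

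The erythroid list was small, with 10 of 25 members measured. Of these 5 gained (50%, against 72.4% of all genes) and 1 lost (10%, against 6.75%). With the division 3 gained and 4 lost, and the median of 5.96 points turned to -0.75. Ermap, a membrane protein of red cells, rose from 63.7 to 86.6% and Trim10 from 45.2 to 64.5%. Nfe2, a factor of erythroid and platelet precursors, was the loss, from 87.5 to 58.8%, with 1 adult library wholly filled. Epor, the erythropoietin receptor, went from 25.7 to 33.3% and was not called after the division (4.01 points). Slc4a1, the red cell anion exchanger, showed 69.8 and 72.1% and Tal1 57.6 and 59.0%, neither called, and both were called lower after the division (-6.96 and -6.25 points).

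**Figure D3:**
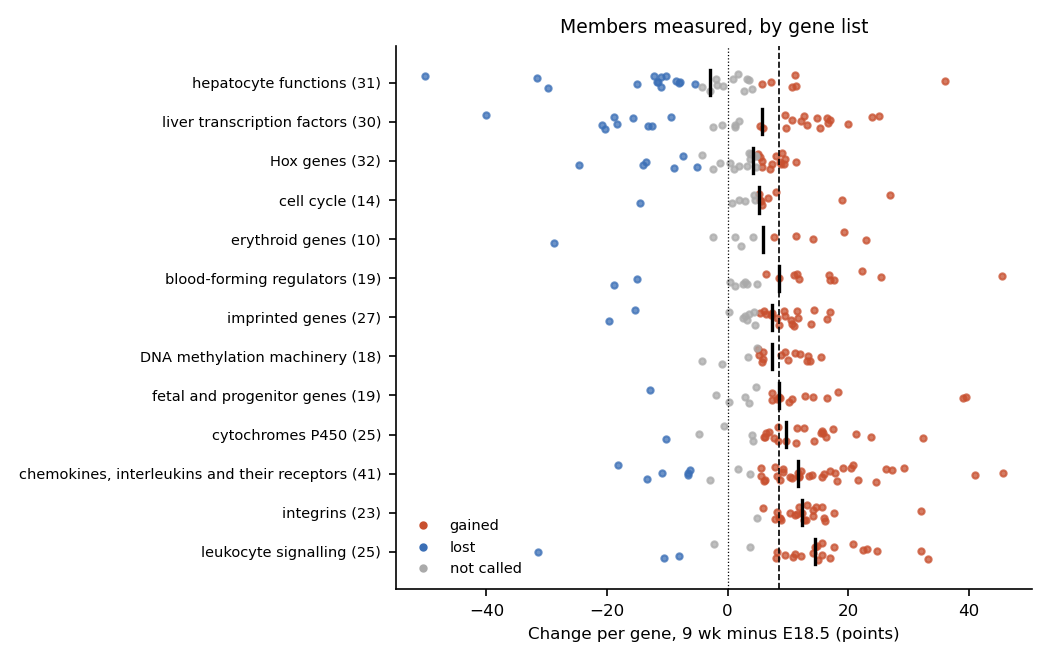
Change per gene in percentage points, 9 wk minus E18.5, for the measured members of 13 gene lists (number measured in parentheses); red points gained, blue points lost and grey points were not called. Black ticks mark each list's median and the dashed line the median of all genes, 8.61 points; the hepatocyte list lies furthest left, at -2.92, and leukocyte signalling furthest right, at 14.5.

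Genes of the fetal liver and of liver progenitors were near the background as a list, with a few large gains. Of 19 measured 13 gained (68.4%, against 72.4% of all genes) and 1 lost, and after the division 6 gained and 4 lost. Sox9, a factor of bile duct and progenitor cells, was nearly unmethylated before birth, at 4.08, 3.60, 3.33, 3.57 and 4.08%, and had 35.9, 41.8 and 55.5% in the adults at the lowest, median and highest. All adults were above all embryos, by 39.6 points on average (SE 2.72, adjusted p = 4.56e-10). Its 13 CpGs are coding, 1685 to 3209 bp from the start, and not at the start site itself. Tbx3, which keeps liver progenitors proliferating, rose from 11.6% ± 0.459 (SD, n = 5) to 50.6% ± 1.88 (SD, n = 10) over 44 CpGs. Krt7, a keratin of bile ducts, fell by 12.8 points. Afp, the fetal serum protein alpha-fetoprotein, had 38.1% ± 2.54 (SD, n = 5) and 41.7% ± 3.77 (SD, n = 10), with overlapping ages. Its adjusted p of 0.0633 was within the limit, but the difference was below the 5 points asked for, so Afp was not called. After the division Afp was at -1.53 points. Afp and Sds were the only genes with enough CpGs among those whose transcripts were followed by PCR in the same work. Sds, an enzyme of serine breakdown, was called lower over its whole window, by 7.99 points (adjusted p = 0.000265), but showed 2.12 points in the opposite direction for the gene body alone.

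Growth and hormone signalling genes had medians near that of all genes, 8.61 points, and cell cycle genes had a lower median. Among all genes 72.4% gained and 6.75% lost. Of 24 measured genes of insulin and glucose signalling 18 gained (75%) and 2 lost (8.33%), with a median of 8.95 points. The larger loss was Irs2, an insulin receptor substrate of liver, with 58.3, 54.5, 55.4, 56.7 and 55.7% in the embryos and 24.3, 31.9 and 40.4% in the adults at the lowest, median and highest. The groups were apart, and the mean fell by 23.2 points (SE 2.02, adjusted p = 8.67e-09). In growth and morphogen signalling 26 of 43 gained (60.5%) and 3 lost (6.98%), with a median of 9.69 points. Fzd5, a Wnt receptor, gained 23.1 points. Of 14 measured cell cycle genes 8 gained (57.1%) and 1 lost (7.14%), with a median of 5.27 points, and -2.91 after the division. Cdkn2a, which encodes cell cycle inhibitors, gained 27.03 points and Cdk1, the mitotic kinase, fell by 14.5, although its median CpG gained 5.62.

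Among imprinted genes, whose CpGs often carry methylation on 1 parental copy, 18 of 27 gained and 2 lost, with a median of 7.45 points. The losses were Nnat and Slc38a4, by 19.6 and 15.4 points, and Meg3 gained 17.0 with overlapping ages. The enzymes and cofactors of DNA methylation itself held 14 gains (77.8%, against 72.4% of all genes) and 0 losses of 18 measured, and 3 gains and 7 losses after the division. Dnmt3b, which sets new methylation, gained 15.4 points.

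Developmental regulators had low medians at both ages. Of 32 measured Hox genes 13 gained and 6 lost, with a median level of 9.67% at E18.5 and 13.9% at 9 wk. Hoxa4 was the largest loss of the list, from 36.1 to 11.5%, at CpGs shared in part with annotated Hoxa3 transcripts. Other homeobox and patterning genes went from a median of 11.7 to 20.5%, with 38 gains and 2 losses of 62. Their shares of gains, 40.6 and 61.3%, were below the 72.4% of all genes as deposited. After the division the order turned, with 9 gains and 7 losses of 32 Hox genes and 23 gains and 2 losses of 62 others, beside 20.3% gains and 23.4% losses among all genes, and medians of 3.01 and 3.34 points.

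The larger families mostly followed the genes as a whole. Solute carriers had 136 gains and 16 losses of 200 measured, with a median of 8.41 points. Their 2 largest losses were Slc23a1, a vitamin C transporter, from 71.9 to 27.7%, and Slc43a1, a transporter of branched-chain amino acids, from 54.8 to 11.0%, the latter with 1 adult library wholly filled. Zinc finger genes had 88 gains and 4 losses of 120, and Zfp703 rose from 13.98 to 57.0% over 45 CpGs. Against 72.4% gains among all genes, collagens had 36 gains (92.3%) and 1 loss of 39 (the list includes Col4a3bp, which encodes no collagen), keratins 18 and 1 of 23, potassium channels 48 and 1 of 63, and protocadherins 12 and 0 of 18. After the division collagens had 1 gain and 1 loss and keratins 3 and 6. Potassium channels then had 11 and 10 and protocadherins 1 and 1, beside 20.3% gains and 23.4% losses among all genes. Kcna3, a potassium channel of lymphocytes, gained 44.4 points.

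Cytochromes P450 had 20 gains (80%, against 72.4% of all genes) and 1 loss (4%, against 6.75%) of 25. With the division they had 9 gains and 4 losses, beside 20.3% gains and 23.4% losses among all genes. Cyp4f14 gained 32.4 points and the retinoic acid hydroxylases Cyp26c1 and Cyp26a1 gained 23.8 and 21.4. The sign of the median turned from above to below 0 after the division for the liver transcription factor, erythroid, cell cycle, insulin, DNA methylation, zinc finger, solute carrier and collagen lists.

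Some genes contained gains and losses side by side that cancelled in the average. CpG by CpG, 7919 of the 149388 gained more than 30 points (5.3%) and 4066 lost as much (2.72%). Nfic, a CAAT-box binding factor of the NFI family, had 16 CpGs in the first group and 17 in the second, among 54. Embryos averaged 37.9% ± 0.922 (SD, n = 5) over the gene and adults 35.9% ± 2.16 (SD, n = 10), with overlapping ages, a difference below the 5 points asked for, and it was called lower after the division (-6.87 points). A stretch of coding sequence and intron at chr10:80870396-80870446 gained, and coding sequence at chr10:80883191-80883282 lost. Sept9, a septin of the cytoskeleton, had 29 gains and 19 losses among 130 CpGs. Its average was 46.9% before birth and 51.0% in adults, below the 5 points asked for, and the difference turned from 4.03 to -2.25 points with the division. Its intronic stretch at chr11:117211436-117211578 gained and that at chr11:117108264-117108373 lost. The 4 stretches are shown because they lie in the same gene and moved in opposite directions, with CpGs that changed by more than 30 points in capitals.
Nfic gain: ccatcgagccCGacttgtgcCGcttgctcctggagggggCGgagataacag
Nfic loss: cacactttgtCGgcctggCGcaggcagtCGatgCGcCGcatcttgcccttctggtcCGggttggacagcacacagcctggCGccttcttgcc
Sept9 gain: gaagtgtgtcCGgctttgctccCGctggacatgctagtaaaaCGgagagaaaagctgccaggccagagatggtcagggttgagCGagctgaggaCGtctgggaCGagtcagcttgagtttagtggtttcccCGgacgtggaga
Sept9 loss: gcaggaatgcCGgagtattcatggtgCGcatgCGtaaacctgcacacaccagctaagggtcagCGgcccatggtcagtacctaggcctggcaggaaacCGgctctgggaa
The first Nfic stretch went from 3.38% ± 1.11 (SD, n = 5) to 40.97% ± 9.17 (SD, n = 10) and the second from 83.7% ± 1.58 (SD, n = 5) to 28.5% ± 7.32 (SD, n = 10). In Sept9 the gaining stretch went from 24.5 to 65.8% and the losing one from 81.9 to 20.5%.

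Zmiz1, a coactivator, gained 20.2 points over 123 CpGs, with 56 CpGs gaining and 11 losing more than 30 points, and Prdm16, a regulator of brown fat and stem cells, gained 12.3 over 252, with 26 and 11. After the division Prdm16 was at 4.32 points and not called. The annotated transcript Gm20388, with 182 and 97, spans many other genes and its 2239 CpGs are mostly theirs. Its gain of 8.63 points was 0.36 and not called after the division. At the other end, genes with 20 or more CpGs and the smallest changes were Kcnip3 (47.8 and 47.9%), Pip5k1b (73.5% at both ages) and Pex14 (67.1 and 67.0%). In Kcnip3 and Pip5k1b 0 CpGs changed by more than 30 points, while Pex14, a peroxisome import protein, held 4 that lost as much. Being flat where most genes gained, all 3 were called lower after the division, at -6.21, -9.54 and -8.81 points for Kcnip3, Pip5k1b and Pex14.

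Start regions and gene bodies often differed. In 1337 genes with at least 3 CpGs within 1 kb of the start site and 3 in the rest of the body, the median start region went from 18.4 to 23.1% and the median body from 67.9 to 78.1%. The median changes were 5.50 and 9.57 points. The body moved above the start region in 563 genes (42.1%) and below it in 267 (20%), and in 333 genes they moved in opposite directions. After the division the body change was above the start region change in 322 genes and below it in 402.

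Rasal3, which restrains Ras in blood cells, had the largest negative difference. Its 7 CpGs near the start rose from 43.5 to 77.0% and its 49 body CpGs fell from 58.8 to 18.1%, a difference of -74.3 points (SE 2.75, adjusted p = 2.19e-14). Over all 56 CpGs the embryos had 52.8, 57.3, 56.8, 57.7 and 59.8% and the adults 20.8, 26.0 and 29.0% at the lowest, median and highest. The average thus fell without overlap although its start rose. Part of its coding sequence that lost methylation, chr17:32533358-32533597, is shown because it carries 24 CpGs that each fell by more than 30 points, in capitals.
Rasal3: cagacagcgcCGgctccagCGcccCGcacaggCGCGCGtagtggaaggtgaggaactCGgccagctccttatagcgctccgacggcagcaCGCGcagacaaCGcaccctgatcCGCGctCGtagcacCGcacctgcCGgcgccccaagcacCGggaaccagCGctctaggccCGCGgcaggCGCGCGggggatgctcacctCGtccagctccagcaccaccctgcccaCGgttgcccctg
That stretch has 29 CpG sites in 240 bases and a GC content of 71.7%. The sites in lower case had no value among the CpGs kept. Its mean was 55.2% ± 3.33 (SD, n = 5) before birth. P1 livers had 44.5% ± 10.6 (SD, n = 9) and adults 8.03% ± 3.29 (SD, n = 10).

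Rasip1, a Ras-interacting protein of blood vessels, rose at its start from 36.3 to 81.5% and went from 61.5 to 47.8% in its body. Its gaining stretch at the start also overlaps exon sequence of Izumo1. Zfp335 went from 74.1 to 87.7% at its start and from 83.8 to 40.1% in its body. Its losing stretch also overlaps exon sequence of Pcif1. The reverse order was seen in Zfp768, whose start went from 76.1 to 21.1% and body from 82.7 to 93.0%, and in 3930402G23Rik, from 49.0 to 15.6% and from 24.4 to 70.4%. Ddo, which oxidises D-aspartate, went from 55.0 to 19.9% at its start and from 65.7 to 86.4% in its body. The whole-gene averages hid these shifts. That of 3930402G23Rik was 38.1% before birth and 39.9% in adults (1.85 points, and -3.19 after the division), and that of Ddo rose by 6.79 points as deposited and was -1.70 after the division.

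**Figure D4:**
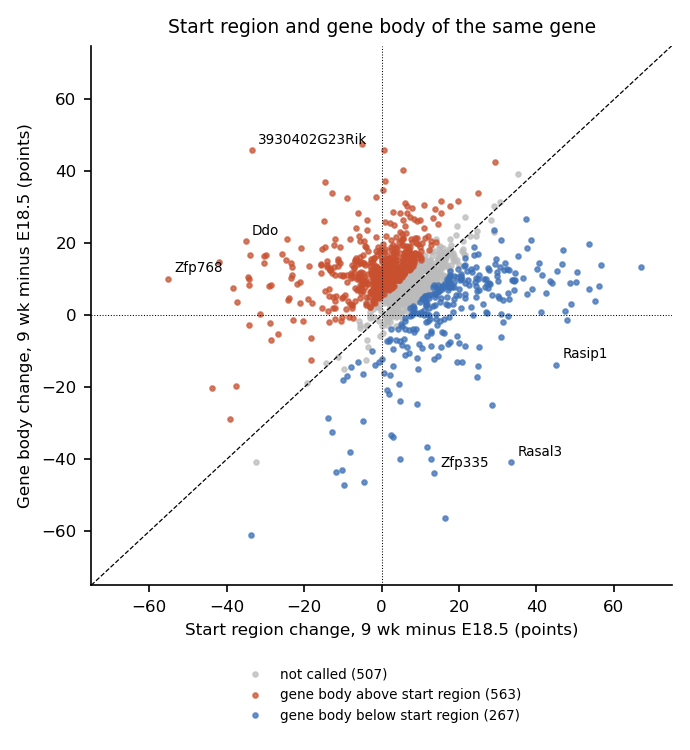
Change of the start region (within 1 kb of the start site, x axis) against that of the rest of the gene body (y axis) in percentage points, 9 wk minus E18.5, for 1337 genes. Red points (563) have a body change above the start change, blue points (267) below and grey points are not called; the 6 labelled genes lie above left or below right of the origin, where the 2 parts moved in opposite directions.

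**Figure D5:**
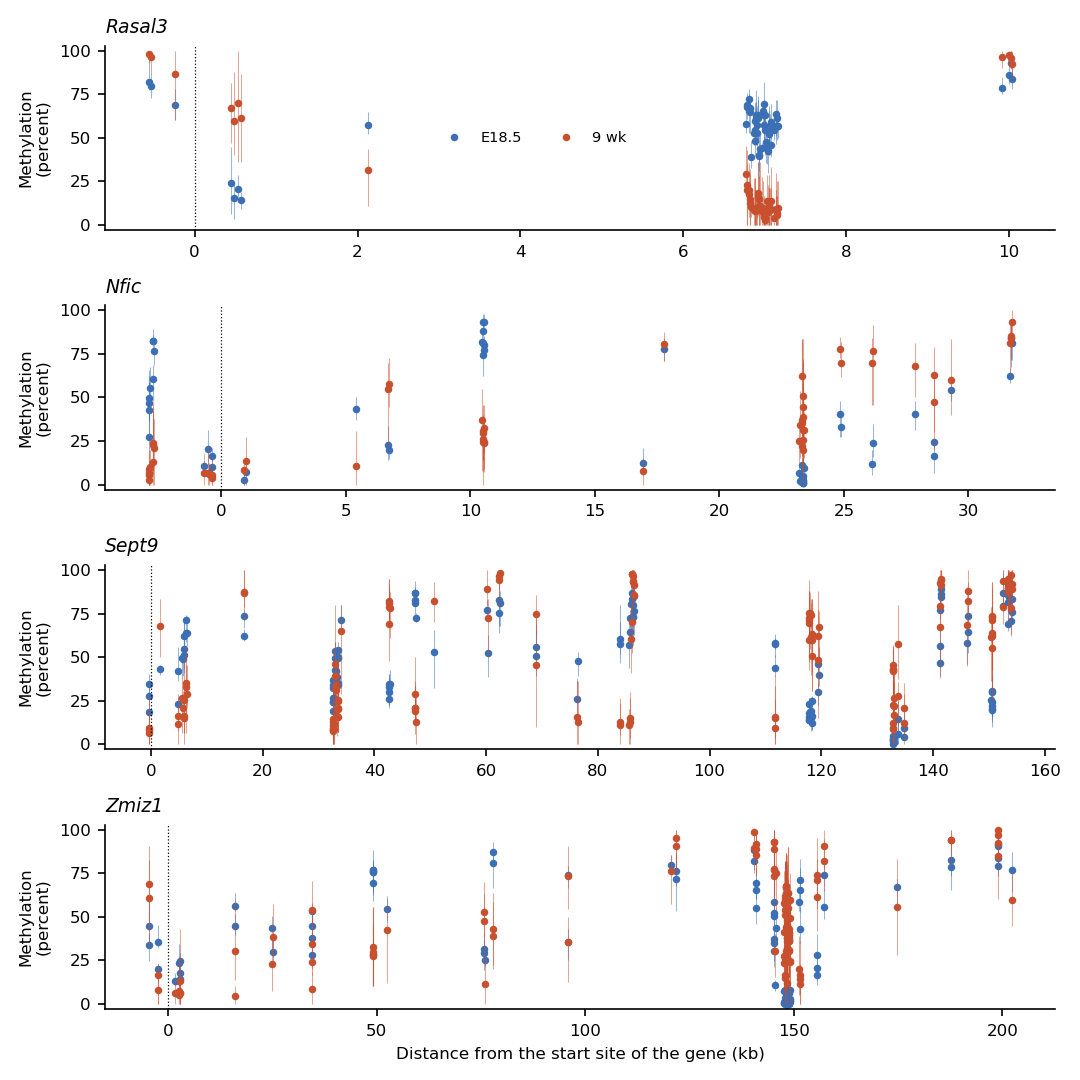
Methylation in percent at each CpG of Rasal3, Nfic, Sept9 and Zmiz1 by distance from the start site in kb, as the mean over libraries at E18.5 (blue, 5) and 9 wk (red, 10) with a line from the lowest to the highest library. Neighbouring CpGs moved together over short stretches, such as the fall about 7 kb into Rasal3 and the rise about 23 kb into Nfic.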

How the data were processed

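Liver DNA of 5 E18.5, 9 P1 and 10 9 wk mice was analysed by RRBS. The authors digested it with MspI, treated it with bisulfite and aligned reads to mm9 with Bismark 0.7.6 and Bowtie2. The authors deposited a fraction of methylated reads per cytosine and library, unscaled, from cytosines with at least 10 reads, and removed CpGs under 10% throughout. Read counts were not used here, so depth and single-value intervals are unknown. 2 files of the authors' own comparisons (p-values, q-values and differences) were not used.

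Groups were taken from the age label. Fractions were converted to percent, CpGs with a value in 12 or more of the 15 E18.5 and 9 wk libraries were kept, and missing values (up to 0.0733% of a library at E18.5, 15.9% at P1, 14.4% in the 9 wk libraries deposited first and 28.5 to 36.9% in the later 3) were filled with the CpG's mean at that age. Filling narrows the spread at 9 wk. CpG means per gene and library were compared with limma 3.58.1 in R 4.3.3 (lmFit, eBayes, Benjamini-Hochberg). P1 was compared in fits of its own. Differences between start region and gene body were fitted in the same way. Means over all genes were compared by a two-sided exact permutation test. Gene lists were given as counts and medians without a test, and lists share members. A gene was called at an adjusted p up to 0.1 and over 5 points. All 270923 positions compared with mm9 lay at a CpG. The fits were tested on simulated data. Python 3.11.15 was used for the rest, with pysam 0.24.0 for sequence, matplotlib 3.10.9 for plots, and scipy 1.17.1, pandas 2.3.3 and numpy 2.4.6.

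The members and lists were chosen with earlier results of these data known. Named genes were the 15 largest gains and losses among called autosomal protein-coding genes without overlap (genes sharing over 50% of CpGs taken as 1), the 5 with most CpGs over 30 points against their main direction, the 3 largest start-to-body differences each way, the 2 largest changes each way per list, the transcripts the study measured, and the 3 smallest changes among genes with 20 or more CpGs. Further members of the lists named in the text were chosen after their values were seen. Alternatives covered missing values, CpG minimum, window, scaling, scale, threshold, variance model, chromosomes, libraries deposited first and single libraries left out. Some members of the lists and 1 list are not reported here.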

Additional observations from a re-analysis of the deposited data

Results flagged for a closer look

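In 274 groups of libraries over 137 named genes, 16 had a library further from the others than Dixon's 95% limit allows. Chance flags about 1 in 20 groups. At 9 wk the high libraries were replicate 5 at Fxyd1 and at Fxyd7, which share their CpGs (92.0%, next 80.3%), replicate 10 at Ppara (27.9%, next 21.4%), and replicate 4 at Nr2f2 (46.1%, next 34.7%), Fzd5 (53.9%, next 49.5%) and Kcng2 (20.7%, next 8.90%). The low libraries at 9 wk were replicate 8 at Il17ra (62.6%, next 74.8%), replicate 7 at Gm20388 (68.3%, next 69.1%) and at Lyl1 (15.8%, next 25.1%), and replicate 1 at Mcm2 (75.3%, next 79.6%).

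Before birth the high libraries were replicate 2 at F12 (20.4%, next 12.6%) and Meg3 (88.8%, next 74.5%), replicate 5 at Nfe2 (93.9%, next 87.0%) and replicate 1 at Arhgef12 (90.4%, next 86.6%). The low ones were replicate 1 at Pax3 (39.8%, next 42.9%) and replicate 5 at Col25a1 (69.4%, next 73.1%). No library was set apart at more than 3 of these genes.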

How the results depend on the processing

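Counts of genes rest mainly on scaling and on how many CpGs are asked for. Divided by highly methylated CpGs, 4542 genes were called, with 2111 gains, 2431 losses, and 281 and 341 over 20 points. The body change was above the start region change in 322 genes and below it in 402. E18.5 to P1 then gave 260 called genes and P1 to 9 wk 3499. With CpGs measured in all 15 libraries, 3621 genes could be tested and 2895 were called, 2639 gains and 256 losses, with 282 and 69 over 20 points. With 10 or more CpGs the 5891 genes gave 4707 calls, 4370 gains and 337 losses, with 316 and 64 over 20 points. In both cases fewer genes were tested. Taking the median over CpGs gave 998 gains and 311 losses over 20 points, and the cause was not tested. A start region from 5 kb upstream to 500 bp downstream gave 1309 genes with unequal change, the body change below in 576, of 2279 tested. With 5 or more CpGs in each part, 519 could be tested and 330 were called, 219 above and 111 below. Some single genes turned direction. Divided, Ddo was at -1.70 and Itga7 at -3.43 points. By the median CpG, Cdk1 was at 5.62, Gsk3b at 2.56 and Arhgef12 at 4.12. With fully measured CpGs, Lyl1 was at 4.65 and Pax3 at 10.8. With 1 kb upstream or the gene body alone Lyl1 was at 38.3, and Sds at 1.20 and 2.12, since CpGs further upstream were left out. Of the other values of named genes 3580 stayed on their side of the call, 52 of them in uncalled genes with a turned sign, 20 lost the call and 53 gained it, 11 of these with a turned sign. Leaving out 1 library at a time gave 8159 to 8245 called genes, 7462 to 7543 gains, 690 to 712 losses, 605 to 629 gains over 20 points and 154 to 161 such losses. The 7 adult libraries deposited first gave 7537 gains and 707 losses, and missing values left out gave 7492 and 687. No paired analysis was possible because the labels give no replicate number that E18.5 and 9 wk livers share, and the numbers used here follow the order of deposit. Depth is unknown, so counting error could not be separated from differences between livers.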

Other observations

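MicroRNA genes, which belong to none of the lists above, were looked at after their values were seen. Of 110 with 5 or more CpGs in their window, 79 gained methylation and 6 lost it, beside 72.4% gains and 6.75% losses among all genes. Their median was 8.48 points, and both the counts and the median were near those of all genes. Mir291b, Mir293, Mir294 and Mir295, microRNAs of a cluster known for its expression in embryonic stem cells, share 8 CpGs within chr7:3217857-3219449 of mm9. Embryos had 34.4, 31.3, 33.1, 37.6 and 33.4%, P1 livers averaged 35.3%, and adults had 57.3% at the lowest, 67.2% at the median and 73.5% at the highest. Every adult was above every embryo, and the gain was 31.6 points (SE 2.30, adjusted p = 9.6e-10). Their mature 3p forms are shown with the seed (bases 2 to 8) in capitals, from RefSeq with the table's build GRCm38.p6, in which 52 of the 110 were found by symbol.
mmu-miR-294-3p: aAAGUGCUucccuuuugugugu
mmu-miR-295-3p: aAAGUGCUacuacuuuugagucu
mmu-miR-291b-3p: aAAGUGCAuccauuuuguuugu
mmu-miR-293-3p: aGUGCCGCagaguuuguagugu
The first pair have the same seed, and the 8 CpGs cannot separate the 4 genes.

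Mir1953 gained 42.7 points, from 31.5 to 74.2%. Mir1982 fell by 48.3 points over the same 5 CpGs as its host Oaz1. Mir10b, which lies among Hox genes, went from 39.8 to 22.4% and Mir126, a microRNA of blood vessels, from 58.7 to 43.4%.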
